A study of Mus musculus with 12 samples.

Results

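The heat shock proteins, their co-chaperones and the cytosolic chaperonin were compared between vitrified and fresh mouse ovarian follicles. Members were chosen by gene symbol, as the HSP90, HSP70, HSP110, small heat shock, HSP60 and HSP10 genes, the DNAJ and BAG co-chaperones, the heat shock factors Hsf1 and Hsf2, and the subunits of the CCT chaperonin. The symbol pattern found 77 genes, from which 6 genes of the endoplasmic reticulum and 3 symbols marked as pseudogenes were left out, so that 68 of 11806 genes were members. RNA had been sequenced from 12 single follicles. Of these 6 were fresh and 6 had been vitrified, a form of freezing without ice in which the tissue sets like glass. Both groups were taken from outbred CD-1 mice that were 16-day-old, embedded one by one in an alginate gel of 0.5% and cultured for 8 days in medium with recombinant follicle-stimulating hormone at 10 mIU/mL. The libraries thus describe follicles after culture and not at warming. Which follicles shared a mouse is not in the labels, and how they were vitrified and warmed is not stated in the sources at hand.

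The values are those of a comparison made by the authors, with a pooled total, a fold change of vitrified over fresh, a p-value and an adjusted p for every gene. No value per follicle or per group was used, so whether the groups overlap in single follicles cannot be read here. The 95% interval printed after a log2 fold change was derived from the deposited fold change and p-value. It holds counting error and the spread between follicles together. The comparison addressed how far the transcriptome of follicles grown after vitrification differed from that of fresh ones. The totals in the authors' deposited table summed to 23783958, of which the members held 0.578%. The granulosa hormone gene Inha had a total of 1121843 in the authors' deposited table, and of 12 granulosa marker genes 11 were tested, with a median log2 fold change of -0.02. Of the 11, 3 had an unadjusted p under 0.05 (27.3%, against 7.02% of all tested genes). Their log2 changes were 0.67 for Fshr, -0.82 for Fst and -0.57 for Inhbb by the authors' deposited table. Markers of other cells of the follicle had medians farther from 0. All 6 tested oocyte markers had a log2 fold change above 0 (median 0.81). Of the 9 tested theca markers 6 lay above 0 (median 0.47), and all 4 tested endothelial markers lay below 0 (median -0.97). None of these passed the threshold. Oocyte markers too low for an adjusted p went both ways. Dazl stood at a log2 change of -2.14 (-3.56 to -0.73, unadjusted p = 0.0030), Nlrp5 at 0.92 and Nobox at 0.83 by the authors' deposited table. Of the tested theca markers 3, all higher, had an unadjusted p under 0.05 (33.3%, against 7.02% of all tested genes). Among them was Insl3, 6.52-fold higher by the authors' deposited table. Tagln, a theca marker without an adjusted p, was 9.63-fold lower (unadjusted p = 0.014) on a total of 27.8 by the authors' deposited table. The only tested marker of immune cells, Lyz2, stood at a log2 change of -1.05 (-2.05 to -0.05) by the authors' deposited table. The part of these shifts in the values below was not tested. In a whole follicle, fewer cells of a type and less RNA per cell cannot be told apart.

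Chaperones bind unfolded or partly folded proteins and release them in cycles driven by ATP. HSP70 proteins receive their clients from J-domain proteins of the DNAJ family, which speed up their ATPase, and are reset by nucleotide exchange factors such as the BAG and HSP110 proteins. HSP90 then matures selected clients, among them steroid receptors and kinases, while the CCT ring folds actin and tubulin and HSP60 with HSP10 folds proteins inside mitochondria. Under heat or other proteotoxic stress, heat shock factor 1 binds repeats of a short element in the promoters of part of these genes and raises their transcription within minutes to hours.

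No member passed the threshold of 0.05 on the adjusted p (0 of 67 tested), against 58 of 10963 genes, or 0.529%, in the authors' deposited table. The lowest adjusted p of a member was 0.18, for Hspa12a, in the authors' deposited table. At an unadjusted p under 0.05 there were 5 members, 3 higher and 2 lower in vitrified follicles, or 7.46%, which is near the 7.02% of all tested genes. Of the 67 tested members 31 had a higher and 36 a lower value, and the median log2 fold change was -0.0081, against -0.02 over all tested genes. The middle range of the members, from the lower to the upper quartile, ran from -0.12 to 0.13, against -0.22 to 0.17 over all tested genes. The remaining member, Hspa12b, had a total of 31.9 and no adjusted p in the authors' deposited table.

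**Figure D1:**
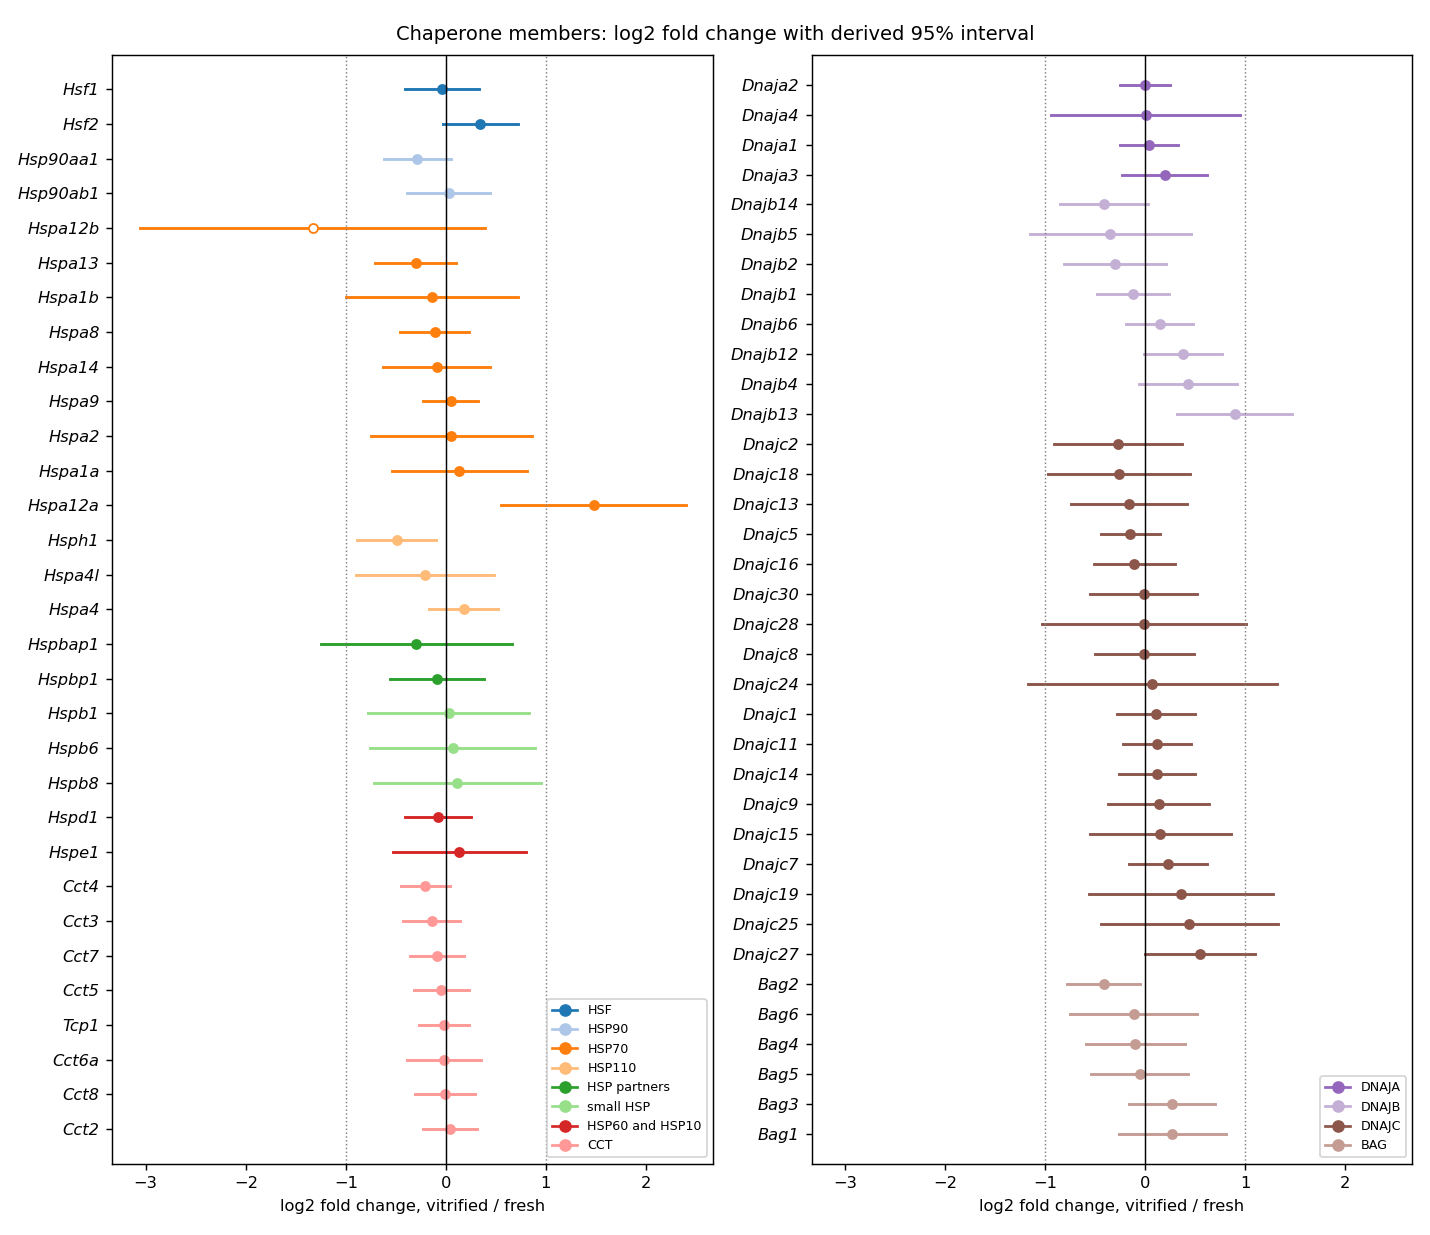
Log2 fold change of vitrified over fresh (x axis) for the 67 members found in the GENCODE annotation, grouped by family (colours). Points are the deposited values, bars the derived 95% intervals, the open point is Hspa12b, which has no adjusted p, and dotted lines mark a 2-fold change. Most bars lie between the dotted lines and cross 0, and Hspa12a and Dnajb13 lie farthest to the right.

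The intervals show how large a change the values still allow. For 58 of 67 tested members the 95% interval lay within 2-fold (86.6%, against 69.1% of all tested genes), and for 27 it lay within 1.5-fold. With intervals from a t distribution of 10 degrees of freedom these counts were 53 (79.1%, against 61.2% of all tested genes) and 24, and Dnaja4, Dnajc18, Hspa1b, Hspb6 and Hspb8 reached past 2-fold. The members had a median total of 521, against 307 over all tested genes. Among the 20 members with a total over 1000, all 20 intervals lay within 2-fold, against 90.7% of the 2007 genes in that range. Within 1.5-fold lay 16, or 80.0%, against 55.6% of the 2007. These members had a median total of 2975, against 1955 for the 2007 genes. Among the 26 members with a total of 300 to 1000, 10 lay within 1.5-fold (38.5%, against 37.1% of all genes in that range). Within 2-fold lay 25 of the 26 (96.2%, against 89.7%). Among the 21 tested members with a total under 300, 13 lay within 2-fold (61.9%, against 47.3% of all tested genes in that range). Within 1.5-fold lay 1 of the 21, and with the t distribution the counts were 8 and 0. Many intervals there thus still allow a 2-fold change. The 9 tested members whose interval reached past 2-fold were Hspa12a, Dnajb13, Dnajb5, Dnajc19, Dnajc24, Dnajc25, Dnajc27, Dnajc28 and Hspbap1.

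**Figure D2:**
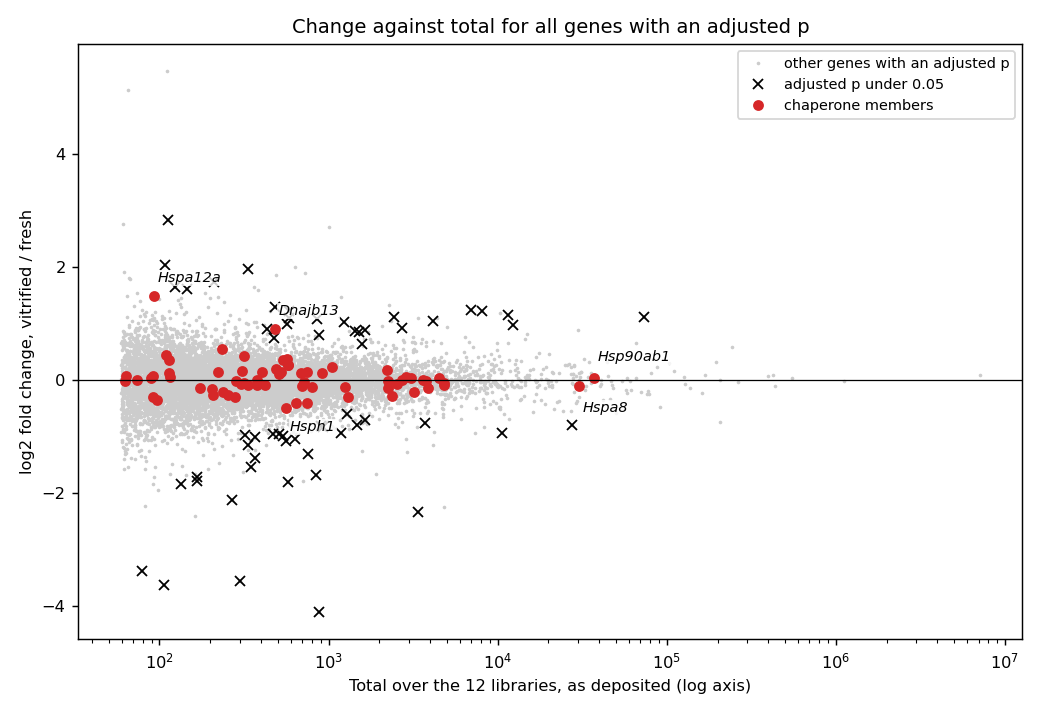
Log2 fold change of vitrified over fresh (y axis) against the deposited total over the 12 libraries (x axis, log scale) for the 10963 genes with an adjusted p. Red points are the 67 tested members, crosses the 58 genes past the threshold, and no member is among the crosses.

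The heat shock factors are the transcription factors of the family. Hsf1, the main stress-responsive factor, had a total of 713 and a change of -0.04 (-0.41 to 0.33, p = 0.84) on the log2 scale in the authors' deposited table, with an interval within 1.5-fold. Hsf2, which is known for roles in germ cells and development, had a total of 535 and a change of 0.35 (-0.03 to 0.72, p = 0.068, adjusted p = 0.78) on the log2 scale in the authors' deposited table. Neither passed the threshold.

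The stress-inducible HSP70 genes Hspa1a and Hspa1b lie near each other on chromosome 17, from 34969190 to 34972156 and from 34956436 to 34959238 in GRCm38, both on the minus strand. In unstressed cells they are usually low. Hspa1a had a total of 222 and a change of 0.13 (-0.54 to 0.81, p = 0.70) on the log2 scale in the authors' deposited table. Hspa1b had a total of 173 and a change of -0.14 (-0.997 to 0.72, p = 0.76) on the log2 scale in the authors' deposited table. Both intervals lay within 2-fold, that of Hspa1b only just, and with the t distribution it reached -1.11. Of the 50-base windows of their transcripts, 59.0% of Hspa1a and 61.3% of Hspa1b occur in another gene, for nearly all of them the other one of the pair, so the split of reads between them is uncertain. Their promoters are alike too, as the RefSeq windows of GRCm38.p6, 250 bases before to 50 bases after the start, differ at 4 of 300 positions. The windows are shown because they make clear how little separates the pair. Capitals mark the match to GAANNTTC, 2 head-to-head repeats of the unit that heat shock factors bind, which each window holds 1 time. Hspa1a lies at chr17:34972107-34972406 and Hspa1b at chr17:34959189-34959488, both read 5′ to 3′ on the minus strand.
Hspa1a: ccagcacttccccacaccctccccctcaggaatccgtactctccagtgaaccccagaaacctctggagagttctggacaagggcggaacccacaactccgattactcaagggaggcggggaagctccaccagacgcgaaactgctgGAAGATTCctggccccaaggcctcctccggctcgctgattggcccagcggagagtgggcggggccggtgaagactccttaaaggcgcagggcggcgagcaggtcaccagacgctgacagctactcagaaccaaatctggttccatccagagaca
Hspa1b: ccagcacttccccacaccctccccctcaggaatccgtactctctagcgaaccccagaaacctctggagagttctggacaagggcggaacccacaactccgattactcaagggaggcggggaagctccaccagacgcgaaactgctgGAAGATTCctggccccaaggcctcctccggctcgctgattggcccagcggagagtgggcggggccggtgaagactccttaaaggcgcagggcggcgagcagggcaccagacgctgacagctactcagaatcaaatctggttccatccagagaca

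The other cytosolic HSP70 gene, Hspa8, makes the constitutive form HSC70. It was the second most abundant member, with 7071 of pooled total per kilobase of exon, above 98.9% of the tested genes. Hspa8 had a change of -0.11 (-0.46 to 0.23, p = 0.52) on the log2 scale in the authors' deposited table, within 1.5-fold. Of its 50-base windows 60.2% occur in 13 other annotated genes, so its count may hold reads of processed copies. Hspa9, the mitochondrial HSP70 mortalin, had a total of 2856 and a change of 0.05 (-0.23 to 0.33, p = 0.75) on the log2 scale in the authors' deposited table. Hspa13, an HSP70 of the microsomal fraction, stood at a log2 change of -0.30 (-0.71 to 0.10, p = 0.15) by the authors' deposited table. Hspa14, a partner of the ribosome-bound chaperones, stood at -0.09 and Hspa2, known for its role in male germ cells, at 0.06. None of these genes passed the threshold.

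The member with the lowest p was Hspa12a, an atypical and distant relative of HSP70, on chromosome 19 from 58795750 to 58943654. It was 2.78-fold higher in vitrified follicles in the authors' deposited table, with a change of 1.48 (0.55 to 2.40) on the log2 scale. The unadjusted p was 0.0017 and the adjusted p 0.18. Its total over the 12 libraries was only 93.4 in the authors' deposited table. Per kilobase of exon that is 10.2, a level below which lay only 2.29% of tested genes. It was the only tested member with a fold change of at least 2 (1 of 67, against 1.77% of all tested genes). Its closest relative Hspa12b, which is known from endothelial cells, pointed the other way at a log2 change of -1.33 (-3.06 to 0.40, p = 0.13) in the authors' deposited table, on a total of 31.9. The 4 tested endothelial markers stood at log2 changes of -1.66 (-3.45 to 0.13) for Cdh5, -1.25 (-3.41 to 0.91) for Pecam1, -0.68 (-2.43 to 1.07) for Eng and -0.27 (-2.71 to 2.18) for Cldn5 by the authors' deposited table. Their part in the value of Hspa12b was not tested.

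The HSP110 genes make large HSP70 relatives that act as nucleotide exchange factors and hold clients in solution. Hsph1, which encodes HSP105 and is a textbook target of heat shock factor 1, lies on chromosome 5 from 149614287 to 149636376. It was 1.41-fold lower in vitrified follicles in the authors' deposited table, with a change of -0.49 (-0.89 to -0.10) on the log2 scale, an unadjusted p of 0.014 and an adjusted p of 0.47. Its total was 564 in the authors' deposited table. Hspa4, the constitutive member with a total of 2207, stood at a log2 change of 0.18 (-0.17 to 0.53, p = 0.32), and Hspa4l at -0.21 (-0.90 to 0.48, p = 0.55) by the authors' deposited table. The 3 values did not share a sign.

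HSP90 is encoded in the cytosol by a constitutive and an inducible gene. Hsp90ab1, the constitutive form, was the most abundant member, with 12438 of pooled total per kilobase of exon, above 99.4% of tested genes. Together Hsp90ab1 and Hspa8 held 49.3% of the summed totals of all members. Hsp90ab1 had a change of 0.03 (-0.38 to 0.44, p = 0.90) on the log2 scale in the authors' deposited table. Hsp90aa1, the inducible form, reached 603 of pooled total per kilobase and had a change of -0.29 (-0.62 to 0.05, p = 0.093, adjusted p = 0.83) on the log2 scale in the authors' deposited table. The 2 intervals overlap, and the difference between the genes could not be tested without values per follicle. Of the windows of Hsp90aa1 61.0% occur in another gene, against 4.26% for Hsp90ab1.

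The mitochondrial chaperonin genes Hspd1, for HSP60, and Hspe1, for HSP10, lie head to head with overlapping ends on chromosome 1, Hspd1 from 55077835 to 55088243 on the minus strand and Hspe1 from 55088132 to 55091307 on the plus strand. Hspd1 had a total of 2533 and a change of -0.07 (-0.41 to 0.26, p = 0.66) on the log2 scale in the authors' deposited table. Hspe1 had a total of 404 and a change of 0.13 (-0.53 to 0.80, p = 0.69) on the log2 scale in the authors' deposited table. Windows of Hspd1 occurred in another gene in 43.1% of cases, most often in Hspd1-ps3, which had a total of 1102 and a change of 0.09 on the log2 scale in the authors' deposited table. Reads of HSP60 and its copies may therefore have been split.

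The CCT ring, also called TRiC, is built from 8 different subunits in equal numbers and folds actin and tubulin. All 8 subunit genes were in the table and all were abundant. Their pooled totals per kilobase of exon ran from 605 for Cct3 to 1754 for Cct5, a ratio of 2.90, and each lay above at least 91.3% of tested genes. The order depends on the length used. Per kilobase of the principal transcript, available for all but Cct6a, Cct5 was again highest at 2618 and Cct4 lowest at 1284, a ratio of 2.04. No subunit passed the threshold between vitrified and fresh follicles, and the intervals were narrow. Log2 fold changes ran from -0.21 for Cct4 to 0.04 for Cct2, with 7 of 8 below 0 and a median of -0.03, close to the median of all tested genes at -0.02. None had an unadjusted p under 0.05. Cct4 had the lowest p, with -0.21 (-0.45 to 0.04, p = 0.098, adjusted p = 0.85), followed by Cct3 at -0.14 (-0.43 to 0.14) and Cct7 at -0.09 (-0.36 to 0.18) in the authors' deposited table. Cct5 stood at a log2 change of -0.05, Tcp1 at -0.02, Cct6a at -0.02 and Cct8 at -0.0068 by the authors' deposited table. The derived standard errors lay between 0.12 and 0.19, and all 8 intervals lay within 1.5-fold. The widest reach was 1.37-fold lower, for Cct4, and 1.27-fold higher, for Cct6a.

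**Figure D3:**
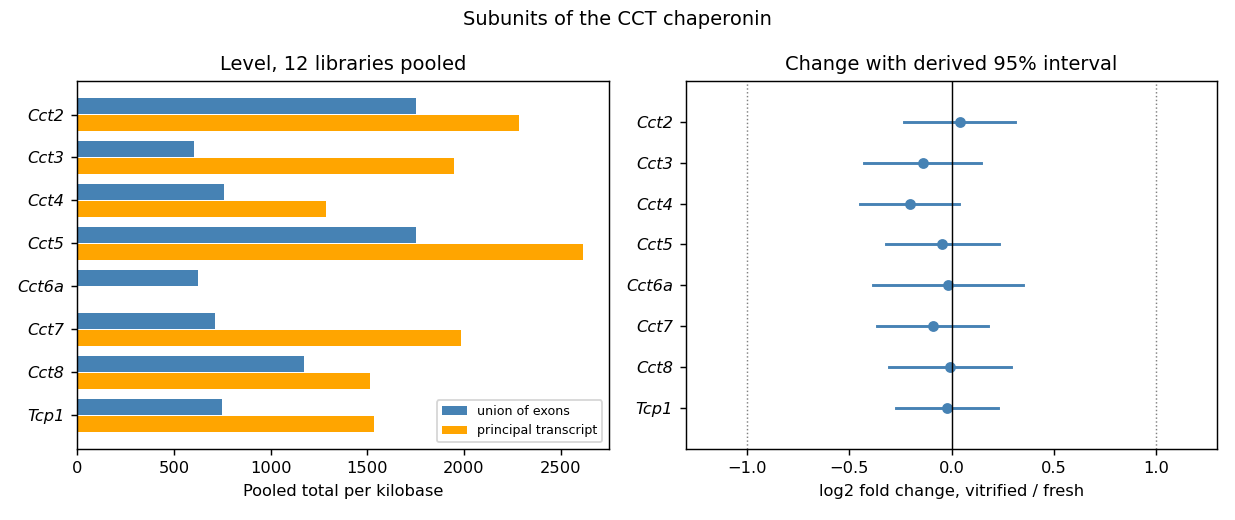
Pooled total per kilobase (left, x axis) by union of exons and by principal transcript, and log2 fold change of vitrified over fresh with derived 95% intervals (right, x axis) for the 8 CCT subunit genes. Cct6a has no principal transcript length. Levels per kilobase of exon run from 605 to 1754, while all 8 intervals cross 0 and stay within 1.5-fold, well inside the dotted 2-fold lines.

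The J-domain co-chaperones made up 30 of the 68 members. Of these 17 had a higher and 13 a lower value, and their median log2 fold change was 0.06. An unadjusted p under 0.05 was found for 2, or 6.67%, near the 7.02% of all tested genes. The DNAJA genes encode the cytosolic partners of HSC70 and the mitochondrial Dnaja3. Dnaja1 and Dnaja2 had totals of 3095 and 2724 by the authors' deposited table. They stood at log2 changes of 0.04 (-0.25 to 0.33) and -0.0031 (-0.25 to 0.25), both within 1.5-fold. Dnaja3 had a change of 0.19 (-0.23 to 0.62) on the log2 scale and Dnaja4, on a total of 73.3, one of 0.0052 (-0.94 to 0.95) in the authors' deposited table.

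The DNAJB genes had the widest spread of the families with at least 4 tested members apart from HSP70, from -0.41 to 0.90. Dnajb13, which is known as a part of the radial spokes of motile cilia and sperm flagella, lies on chromosome 7 from 100501716 to 100514960. It was 1.86-fold higher in vitrified follicles in the authors' deposited table, with a change of 0.90 (0.32 to 1.47) on the log2 scale, an unadjusted p of 0.0024 and an adjusted p of 0.21 on a total of 480. In the GENCODE annotation 11.2% of its exon bases overlap exons of Ucp2 on the opposite strand. Reads there cannot be told apart if counting ignored strand. RefSeq places Dnajb13 from 100503011 to 100514815, past the GENCODE end of Ucp2 at 100502020. Which annotation was used for counting is not stated in the sources at hand. Ucp2, a mitochondrial carrier gene, had a total of 29571 and a change of -0.38 (-0.79 to 0.04) on the log2 scale in the authors' deposited table. The part of Ucp2 reads in the value of Dnajb13 was not tested. Dnajb12 and Dnajb14 encode related J-proteins anchored in the membrane of the endoplasmic reticulum. They stood at log2 changes of 0.38 (-0.01 to 0.77, p = 0.058) and -0.41 (-0.86 to 0.03, p = 0.069) by the authors' deposited table. Dnajb4 stood at a log2 change of 0.43 (-0.06 to 0.92, p = 0.083) by the authors' deposited table. Dnajb1, the main inducible HSP40 and an early target of heat shock factor 1, had a total of 795 and a change of -0.12 (-0.48 to 0.24, p = 0.51) on the log2 scale, within 1.5-fold, in the authors' deposited table. Dnajb6, an inhibitor of protein aggregation, stood at a log2 change of 0.15, Dnajb2 at -0.30 and Dnajb5 at -0.35 by the authors' deposited table.

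The DNAJC genes form the most diverse class, with 18 members, 10 higher and 8 lower, and the median log2 fold change was 0.09. Dnajc27, which encodes a Rab-like GTPase with a J-domain, lies on chromosome 12 from 4082583 to 4110606. It was 1.47-fold higher in the authors' deposited table, with a change of 0.55 (9.2e-05 to 1.10) on the log2 scale, an unadjusted p of 0.04996 and an adjusted p of 0.72 on a total of 236. Its interval only just left out 0. Dnajc5, which encodes the cysteine string protein of secretory vesicles, was the DNAJC member of highest level at 323 of pooled total per kilobase of exon and stood at a log2 change of -0.15 (-0.45 to 0.15, p = 0.32) by the authors' deposited table. Dnajc9, a histone chaperone, was next at 219 per kilobase and stood at a log2 change of 0.13 (-0.37 to 0.64), and Dnajc7, an adaptor between HSP70 and HSP90, stood at 0.23 (-0.16 to 0.62, p = 0.24) by the authors' deposited table. Per kilobase of the principal transcript the order of the 3 differed, with Dnajc7 at 449, Dnajc5 at 341 and Dnajc9 at 320. Dnajc11, which is linked to the shaping of mitochondrial cristae, stood at a log2 change of 0.12 by the authors' deposited table. Dnajc15 and Dnajc19, of the mitochondrial import motor, stood at log2 changes of 0.15 and 0.36 by the authors' deposited table. The ribosome-associated Dnajc2, the endosomal Dnajc13 and the splicing-associated Dnajc8 stood at log2 changes of -0.27, -0.16 and -0.0081 by the authors' deposited table. Dnajc25 stood at a log2 change of 0.44, but on a total of 110 its interval ran from -0.45 to 1.33 by the authors' deposited table. The other DNAJC members, Dnajc1, Dnajc14, Dnajc16, Dnajc18, Dnajc24, Dnajc28 and Dnajc30, had log2 fold changes from -0.26 for Dnajc18 to 0.12 for Dnajc14 in the authors' deposited table.

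BAG proteins bind the ATPase domain of HSP70 and send its clients to different ends. Bag2, an inhibitor of the ubiquitin ligase CHIP, lies on chromosome 1 from 33745484 to 33757795. It was 1.33-fold lower in vitrified follicles in the authors' deposited table, with a change of -0.41 (-0.78 to -0.05) on the log2 scale, an unadjusted p of 0.027 and an adjusted p of 0.58 on a total of 641. Bag3, which directs clients to autophagy, stood at a log2 change of 0.27 (-0.16 to 0.70, p = 0.22) by the authors' deposited table. Bag1, which links HSP70 to the proteasome, stood at 0.27 (-0.26 to 0.81, p = 0.32) by the authors' deposited table. Bag4, Bag5 and Bag6 stood at log2 changes of -0.10, -0.05 and -0.12 by the authors' deposited table. All 6 BAG intervals lay within 2-fold. The symbol pattern also took in Hspbp1, a nucleotide exchange factor of HSP70, at a log2 change of -0.09 (-0.56 to 0.38), and Hspbap1, a protein that binds HSPB1, at -0.30 (-1.25 to 0.66) in the authors' deposited table.

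Small heat shock proteins hold unfolded proteins without using ATP. The 3 found, Hspb1, Hspb6 and Hspb8, had totals of 89.3, 91.1 and 115 by the authors' deposited table. Per kilobase of exon they lay above 55.2%, 30.7% and 43.0% of tested genes. Hspb1 stood at a log2 change of 0.03 (-0.78 to 0.83), Hspb6 at 0.07 (-0.75 to 0.89) and Hspb8, the partner of BAG3, at 0.12 (-0.72 to 0.95) by the authors' deposited table. None of the 3 intervals lay within 1.5-fold. All lay within 2-fold with the normal quantile, but with the t distribution those of Hspb6 and Hspb8 did not. Of the windows of Hspb1 54.9% occur in Hsp25-ps1.

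Textbook targets of heat shock factor 1 were also taken as a list of their own. Of 23 listed targets 22 were tested, 17 of them members, and 11 had a higher and 11 a lower value, with a median log2 fold change of -0.0025. The count past the threshold was 0, against 0.529% of all tested genes. At an unadjusted p under 0.05 there were 2, both lower, namely Hsph1 and Serpinh1. That is 9.09% of the 22, near the 7.02% of all tested genes. Serpinh1, which encodes the collagen chaperone HSP47, had a change of -0.51 (-0.94 to -0.08, p = 0.019, adjusted p = 0.52) on the log2 scale in the authors' deposited table. Chordc1, a partner of HSP90, had the lowest log2 change at -0.53 (-1.09 to 0.03, p = 0.062) and Dnajb4 the highest at 0.43 in the authors' deposited table. The interval lay within 2-fold for 21 of the 22, or for 19 with the t distribution. The 6 chaperones of the endoplasmic reticulum that the symbol rule left out had a median of -0.18, with 5 lower and 1 higher and 0 past the threshold. Dnajc3, an inhibitor of the kinases that phosphorylate eIF2alpha, had the lowest p of them at 0.0035 in the authors' deposited table. Whether these differ from the members was not tested.

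**Figure D4:**
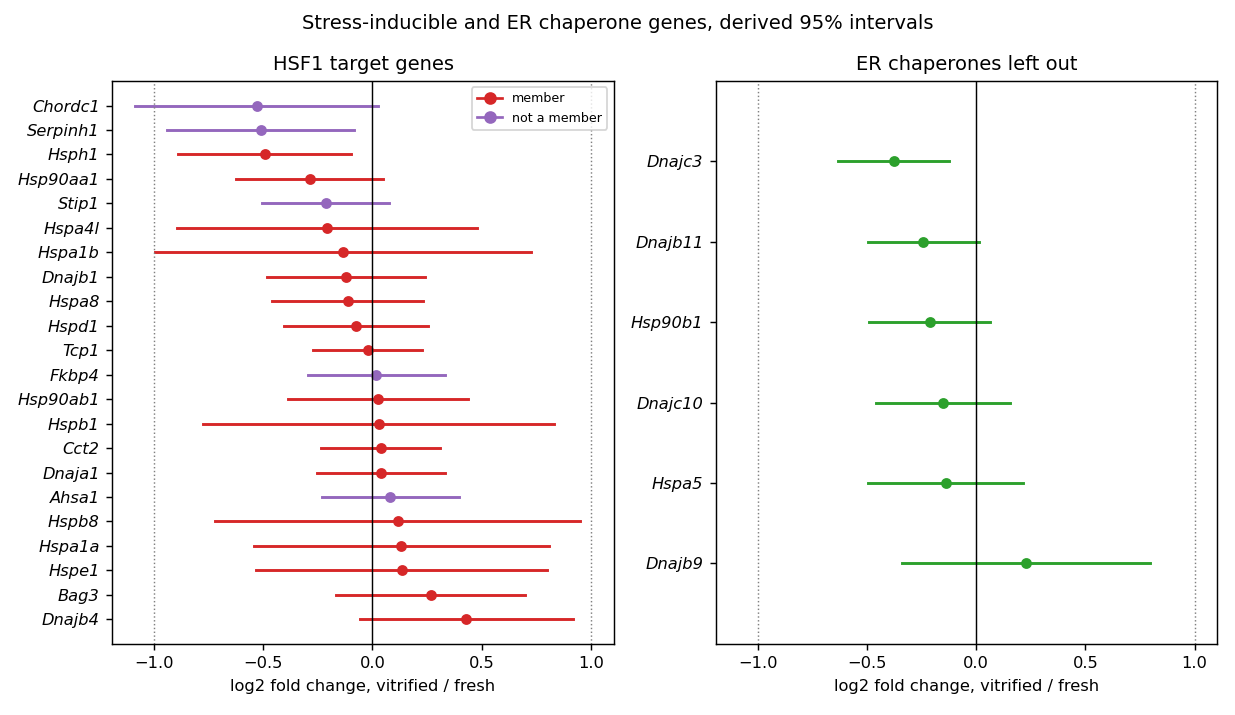
Log2 fold change of vitrified over fresh (x axis) with derived 95% intervals for 22 targets of heat shock factor 1 (left, members in red and other genes in purple) and for the 6 chaperones of the endoplasmic reticulum left out of the members (right, green). The targets lie evenly around 0, with 11 on each side, while 5 of the 6 on the right lie below 0.

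The element bound by heat shock factors was looked for in the promoters. RefSeq windows of 300 bases were found for 54 of the 68 members, of which 53 were tested. The motif GAANNTTCNNGAA, 3 alternating repeats on either strand, occurs in the windows of 4 members, Hsph1, Dnajb6, Hspd1 and Hspe1, or 7.55% of the 53, against 0.584% of 8052 tested genes with a window. The shorter GAANNTTC or TTCNNGAA, which the longer motif contains, occurs in 17 members (32.1%, against 13.3% of tested genes). Hspd1 and Hspe1 share 1 stretch, read from opposite strands, which holds 2 overlapping matches. The stretches are shown with matches in capitals, so that they can be set beside the values of their genes. Hsph1 lies at chr5:149636282-149636306 on the minus strand, Dnajb6 at chr5:29735846-29735870 on the plus strand, Hspe1 at chr1:55088053-55088082 on the plus strand and Hspd1 at the same place on the minus strand, all in GRCm38.p6 and written 5′ to 3′. The match of Hsph1 begins 15 bases after one RefSeq start and 36 after the other, and those of Dnajb6 and Hspe1 lie before their RefSeq starts. RefSeq gives Hspd1 2 starts. The stretch lies before the start at 55087932 but after the one at 55088243, whose window holds no match. In the GENCODE annotation the stretches of Hsph1, Dnajb6 and Hspd1 each lie inside exon 1 of at least 1 protein-coding transcript of the gene.
Hsph1: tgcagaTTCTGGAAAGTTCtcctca
Dnajb6: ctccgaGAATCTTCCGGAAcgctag
Hspe1: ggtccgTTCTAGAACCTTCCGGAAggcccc
Hspd1: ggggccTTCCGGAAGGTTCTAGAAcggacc
The 4 genes with these stretches had values on both sides of 0. Hsph1 stood at a log2 change of -0.49, Hspd1 at -0.07, Hspe1 at 0.13 and Dnajb6 at 0.15 (-0.19 to 0.48) by the authors' deposited table. Their median was 0.03, the same to 2 decimals as the 0.03 of the 49 tested members whose windows lack the motif. Those 49 include the textbook targets Hspa1a, Hspa1b, Dnajb1 and Hspb1, while Hspa8, Hsp90aa1 and Hsp90ab1 had no window. The split therefore does not separate targets of heat shock factor 1 from other members. A match is a description of these letters and not a measured binding site.

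Of the other genes of the pathway, 45 of 50 listed were tested, 24 higher and 21 lower, with a median log2 fold change of 0.01. Past the threshold was 1 of the 45, against 0.529% of all tested genes. It was Ubqln2, a shuttle factor that brings ubiquitinated proteins to the proteasome, at 1.22 (0.71 to 1.73, adjusted p = 0.0026) in the authors' deposited table. With the p-values read against a t distribution it did not pass (adjusted p = 0.62). At an unadjusted p under 0.05 there were 5 of the 45, or 11.1%, against 7.02% of all tested genes. Besides Ubqln2 these were a further 4. Of these Ubqln1, its relative, stood at a log2 change of 0.39 (0.02 to 0.75) and the mitochondrial FK506-binding protein gene Fkbp8 at 0.43 (0.08 to 0.77) by the authors' deposited table, while Aarsd1 stood at -1.10 (-1.93 to -0.26) and Serpinh1, given above, was lower too. Of the windows of Aarsd1 53.7% occur in another gene. The genes of highest total were the autophagy receptor Sqstm1 at 35575, the HSP90 co-chaperone Fkbp4, which also binds steroid receptors, at 6721 and the unfoldase Vcp at 4654, with log2 fold changes of 0.12, 0.02 and 0.0026 by the authors' deposited table. The 20 tested genes listed as HSP90 co-chaperones and client adaptors had a median of -0.04 and 0 past the threshold. That list also holds Trap1, itself a mitochondrial HSP90 gene. The 10 tested genes of prefoldin and partners of the chaperonin, which hand clients to CCT, had a median of 0.10 and 0 past the threshold.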

How the data were processed

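RNA was measured in 12 libraries of single follicles, grouped by sample title, with 1 comparison, vitrified against fresh. Per the submitters' processing notes, Bowtie2, HISAT2, Partek, DESeq2 and the build mm10 were named, without versions or roles. The sources used here do not state how reads were counted, whether strand was used or which test was run. The authors deposited 1 table of their own comparison with, per the file headers, a total count, a p-value, a step-up adjusted p, a signed fold change score and a log2 fold change per gene. With a tolerance of 0.001, 0.237% of the deposited totals are whole. They were used as pooled totals only, and the depth per library is unknown. An adjusted p is missing for 843 genes, each with a total of at most 59.44.

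The deposited p-value and log2 fold change were used as given, and genes under 0.05 on the adjusted p passed. The normal quantile of p gave a statistic and, with the log2 fold change, a standard error and a 95% interval (Python 3.11.15, scipy 1.17.1). These steps were run on simulated data with normal errors and normal p-values. Such data check the calculation only, and not whether the deposited p-values came from a normal test. With the mouse of each follicle unknown, the p-values measure only the spread between these follicles. Of the 68 members 67 were found by symbol in GENCODE mouse release 21, whose GRCm38 assembly is the one named mm10, which gave coordinates, lengths and the share of 50-base windows, every 25 bases, found in another gene. The other member is in the counts and medians, but its own values are not reported here. Totals were divided by the union of exons. Members, lists and the rule for giving full statistics (members with an unadjusted p under 0.05, the 3 lowest p and 2 highest levels of each family, heat shock factors and their targets) were chosen with earlier results of these data known.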

Additional observations from a re-analysis of the deposited data

How the results depend on the processing

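No member passed the threshold under any of 4 alternatives (0 each). They were a t distribution (10 degrees of freedom), no filter on totals, a total of at least 120, and a recomputed adjusted p. The t distribution, used instead of the normal, raises every p, and the recomputed adjusted p repeats the adjustment of the deposited p-values. Neither could have brought a member past the threshold. With the t distribution 0 genes passed in all, in place of 58, and 3 members, in place of 5, had an unadjusted p under 0.05. Bag2 and Dnajc27 were the members lost, which follows from the heavier tails, and Ubqln2 was among the genes lost. For the same reason 53 of the 67 tested members, in place of 58, had an interval within 2-fold. With the other alternatives 57 or 58 genes passed. The median of the members ran from -0.02 at a total of at least 120 to 0.01 after centring on the median of all genes, so its sign is not fixed. Centring moved 6 members from just below to just above 0, Cct6a to 0.0048, Cct8 to 0.015, Dnaja2 to 0.019, Dnajc28 to 0.0068, Dnajc30 to 0.0064 and Dnajc8 to 0.014. Centring of the other lists and the length of the principal transcript were chosen after seeing the data. No paired analysis was possible because the table holds no value per follicle, and for the same reason no library could be left out.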
